A study of Mus musculus with 6 samples.

Results

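The 39 genes described here encode the molecules of the mouse major histocompatibility complex (MHC, called H2 in the mouse) and their antigen presentation machinery, with *H2-Ke6* included by its name only. They were chosen by symbol: every gene whose symbol begins with H2- and that had a probe set naming it alone (29 genes), together with *B2m*, *Tap1*, *Tap2*, *Tapbp*, *Psmb8*, *Psmb9*, *Psmb10*, *Cd74*, *Ciita* and *Nlrc5* (10 genes). They are 39 of the 19938 genes compared. RNA from the esophageal epithelium of 6 mice aged 3 months, all of mixed genetic background, was hybridised to 1 array per animal. The 3 mutant mice carried ED-L2-Cre and Klf4loxp/loxp. The 3 controls were littermates of the same sex with Klf4loxp/loxp and no Cre, so the floxed *Klf4* alleles were shared by both groups and the transgene was not. ED-L2 is a viral promoter active in squamous epithelium, so Cre was not directed to leukocytes or stroma. Each group held 1 male (replicate 1) and 2 females (replicates 2 and 3). H2 genes differ in sequence between haplotypes, and which haplotypes these animals carried is not stated. Nothing says how many litters the animals came from.

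Classical class I molecules (H2-K and H2-D) sit on nearly every nucleated cell and show peptides from the cell's own proteins to CD8 T cells. The peptides are cut by the proteasome, in which Psmb8, Psmb9 and Psmb10 replace the constitutive catalytic subunits after interferon exposure. They are pumped into the endoplasmic reticulum by Tap1 and Tap2 and loaded with the help of tapasin (*Tapbp*) onto a heavy chain paired with beta-2 microglobulin (*B2m*). Nonclassical class I molecules of the Q, T and M regions resemble these heavy chains but are less variable and often restricted to a tissue. Class II molecules present peptides from endosomes to CD4 T cells, mostly on dendritic cells, Langerhans cells, macrophages and B cells, with the invariant chain (*Cd74*) as their escort. *Ciita* and *Nlrc5* encode the transactivators of class II and of class I genes.

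Markers of squamous epithelium, the labelled tissue, were bright, but stromal markers were present too. The targeted transcript was not lower. The 10 squamous markers read 8.82 to 13.80 on the log2 scale, all above the 40th percentile of gene means (4.72), called the dim limit here. *Klf4* itself read 9.75, 10.15 and 10.06 on the control arrays and 10.28, 10.503 and 10.28 on the mutant arrays, a difference of 0.37 ± 0.13 (SE; adjusted p = 0.314). The position of its probes relative to the floxed part is not given, so this reading checks nothing. Directions therefore rest on the labels. Fibroblast markers were present too (8 of 8 above the dim limit), and all 8 were lower on the mutant arrays, 3 of them past the test (*Col1a2*, *Sparc* and *Thy1*), with list means of 8.28 to 9.06 on control and 7.50 to 7.73 on mutant arrays. All 5 smooth muscle markers lay above the dim limit and differed downward, and 0 passed in limma (4 at an unadjusted p under 0.05; *Tagln* -0.89 ± 0.17, *Cnn1* -1.09 ± 0.21). The 5 endothelial markers (*Emcn* 0.30 ± 0.12, *Tek* -0.72 ± 0.30) and the 10 squamous markers (*Sox2* 0.51 ± 0.16, *Dsg3* 0.73 ± 0.23) had 0 passing, with 2 and 3 at an unadjusted p under 0.05. The part of these marker differences in the members' values was not tested.

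*H2-M10.5*, a nonclassical class I gene, was the only member that changed past the threshold, and it rose. Of all 19938 genes, 1.04% had an adjusted p under 0.05 (limma, 3 arrays per group), 0.366% in the upward direction. None of the 39 members fell, where 0.672% of all genes did, and at an unadjusted p under 0.05 there were 3 members, *H2-M10.5*, *H2-M10.3* and *Tapbp*, beside 12.4% of all genes. Of the 39 members, 27 had a difference above 0 and 12 below, which is 69.2% above 0 beside 55.5% of all genes. Their median difference was 0.099 on the log2 scale, beside 0.022 for all genes. The groups did not overlap in 7 members, beside 18.1% of all genes, so that count is near the background. Of the 7, 6 were higher on the mutant arrays, beside 10.1% of all genes, and 1 was lower, beside 8%.

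**Figure D1:**
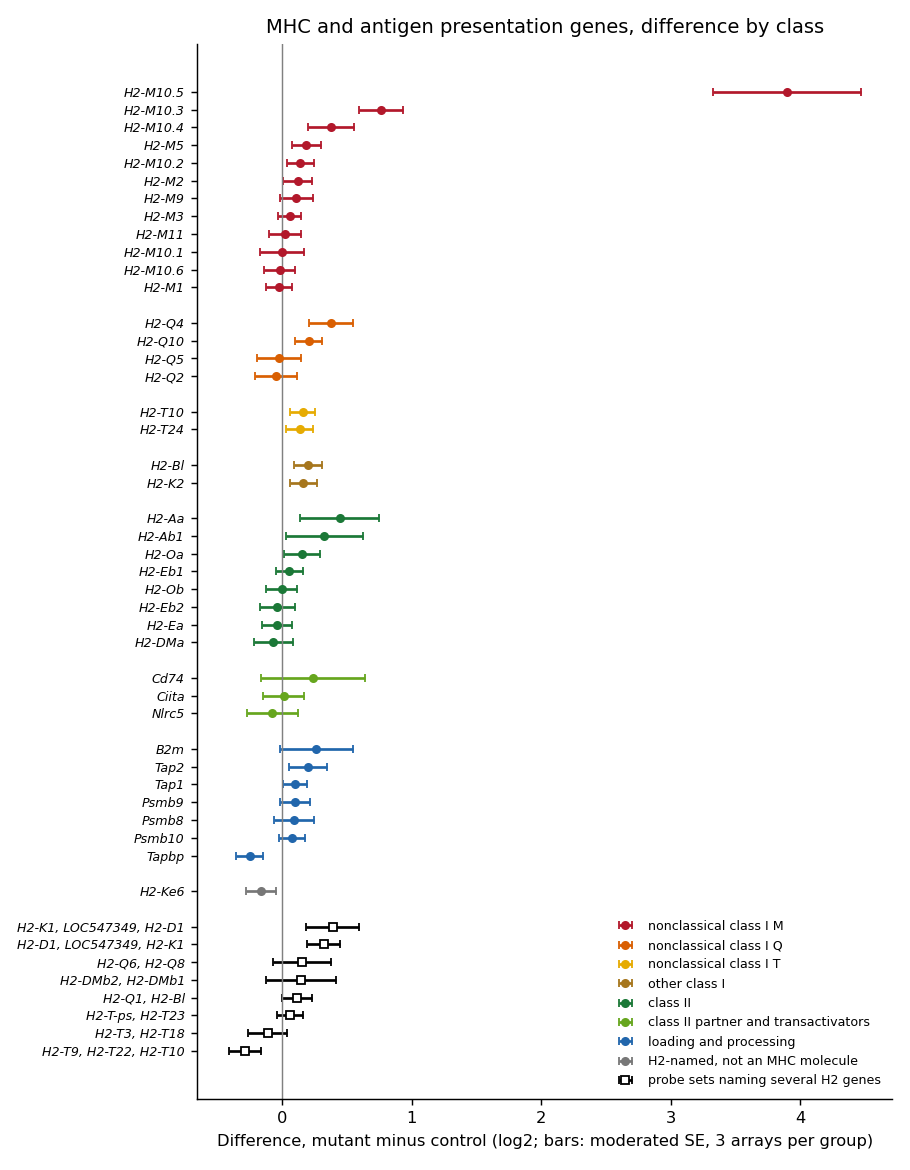
Difference between mutant and control means (log2, horizontal axis) for the 39 members by class, and for 8 probe sets that name several H2 genes (open squares). Bars are the moderated SE with 3 arrays per group. *H2-M10.5* lies at 3.90, and the other 38 members lie between -0.25 and 0.76.

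*H2-M10.5* belongs to the H2-M10 family, class I heavy chain genes known for expression in sensory neurons of the vomeronasal organ, where they accompany pheromone receptors. Its probe set (10445022) read 5.39, 4.94 and 4.50 on control arrays 1 to 3 and 10.14, 8.79 and 7.60 on mutant arrays 1 to 3. Every mutant value lay above every control value, and the mutant arrays were also widely spread. The means were 4.94 ± 0.44 and 8.84 ± 1.27 (SD, n = 3 each). The difference was 3.90 ± 0.57 (SE), a 14.9-fold increase (adjusted p = 0.0273) that ranked 8 among the increases of all 19938 genes. The control mean lay barely above the dim limit of 4.72, so the size of the fold is uncertain. The rise was seen in the male pair (4.75) and in the females (3.47). Its call was lost without control 2 (adjusted p = 0.0763), without control 3 (0.131) and without mutant 2 (0.0973), with differences of 3.89, 3.68 and 3.93.

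The H2-M10 family offers a comparison of close relatives, and the upstream sequences of 4 of its 6 measured genes are printed because they are much alike while the readings are not. *H2-M10.5* and *H2-M10.3* had the largest differences of the family, *H2-M10.6* and *H2-M10.1* the smallest. Each stretch runs from 250 bases before to 50 after the gene's start, 5′ to 3′, from RefSeq. Capitals mark TGACG and CCAAT on either strand, motifs known from MHC promoters as the binding sites of CREB/ATF factors and of NF-Y.
H2-M10.5 (GRCm38.p6, chr17:36772660-36772959, + strand): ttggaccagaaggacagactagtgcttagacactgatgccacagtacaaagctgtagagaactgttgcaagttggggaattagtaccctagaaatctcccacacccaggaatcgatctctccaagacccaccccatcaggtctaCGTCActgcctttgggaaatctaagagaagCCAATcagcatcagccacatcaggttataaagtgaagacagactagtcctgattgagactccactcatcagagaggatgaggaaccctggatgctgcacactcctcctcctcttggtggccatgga
H2-M10.3 (GRCm38.p6, chr17:36368368-36368667, - strand): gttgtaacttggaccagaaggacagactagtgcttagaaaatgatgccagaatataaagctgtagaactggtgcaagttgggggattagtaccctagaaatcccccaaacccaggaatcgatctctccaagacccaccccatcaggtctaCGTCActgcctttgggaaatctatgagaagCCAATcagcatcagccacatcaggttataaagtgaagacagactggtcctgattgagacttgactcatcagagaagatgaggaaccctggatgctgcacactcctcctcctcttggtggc
H2-M10.6 (GRCm38.p6, chr17:36811925-36812224, + strand): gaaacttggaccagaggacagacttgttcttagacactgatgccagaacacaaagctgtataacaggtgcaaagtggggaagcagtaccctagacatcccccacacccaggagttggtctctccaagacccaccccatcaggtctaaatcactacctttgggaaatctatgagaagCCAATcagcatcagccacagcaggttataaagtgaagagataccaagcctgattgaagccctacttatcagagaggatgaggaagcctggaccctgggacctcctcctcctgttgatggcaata
H2-M10.1 (GRCm38.p6, chr17:36326101-36326400, - strand): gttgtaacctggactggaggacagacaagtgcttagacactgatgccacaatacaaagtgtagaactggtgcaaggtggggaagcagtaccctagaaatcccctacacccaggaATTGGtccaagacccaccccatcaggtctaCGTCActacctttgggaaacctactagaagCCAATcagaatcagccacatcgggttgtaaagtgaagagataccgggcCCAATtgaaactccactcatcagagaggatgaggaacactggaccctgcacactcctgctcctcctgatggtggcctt

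Aligned to the *H2-M10.5* stretch, *H2-M10.3* was identical at 95.2% of aligned bases, *H2-M10.4* at 90.4%, *H2-M10.1* at 88.6%, *H2-M10.6* at 86.4% and *H2-M10.2* at 84.4%. TGACG was found in 4 of the 6 family promoters, not in *H2-M10.2* or *H2-M10.6*, and in 20.8% of all 32851 promoters of the same length. CCAAT was found in 6 of 6, beside 37.4% of all. CACCC, the core of the motif that Kruppel-like factors such as Klf4 bind, was found on either strand in 6 of 6, beside 57.5% of all, and its end bases can be shared with a match of either other motif. All 6 family promoters thus held CACCC and CCAAT. Because the 6 stretches are so alike, their matches are not independent and cannot be read as an excess over the shares of all promoters. The part of these motifs in the readings was not tested. These are matches of letters, not measured binding.

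*H2-M10.3* came next in the family and did not pass. It read 4.07, 3.81 and 3.96 on the control arrays and 4.74, 4.37 and 5.02 on the mutant arrays. All 3 mutant values were above all control values, but the control values lay under the dim limit. The difference was 0.76 ± 0.17 (SE; adjusted p = 0.104), with 0.67 in the male pair and 0.81 in the females, and the adjusted p lay between 0.0604 and 0.321 over the alternatives. *H2-M10.4* read 5.30, 5.12 and 5.35 on control and 5.28, 5.99 and 5.62 on mutant arrays, with overlapping groups (0.37 ± 0.18; adjusted p = 0.463). In that gene the male mutant lay within the controls and both female mutants above them.

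The remaining family members differed little. *H2-M10.2*, whose signal was above the dim limit on every array, read 5.52, 5.60 and 5.33 on control and 5.62, 5.64 and 5.61 on mutant arrays (0.14 ± 0.10). Its groups were only just separate, with control 2 close under the mutant arrays. *H2-M10.1*, the dimmest of all 39 members, read 2.70, 2.86 and 2.59 on control and 2.47, 2.60 and 3.08 on mutant arrays, a difference of -0.0026 ± 0.1684. *H2-M10.6*, the neighbour of *H2-M10.5* in the gene order of assembly GRCm38.p6, differed by -0.021 ± 0.121. The H2-M10 genes are close in sequence and the probe sequences were not used here, so a probe set may read more than its own gene, and each family member's value is uncertain to that extent.

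**Figure D2:**
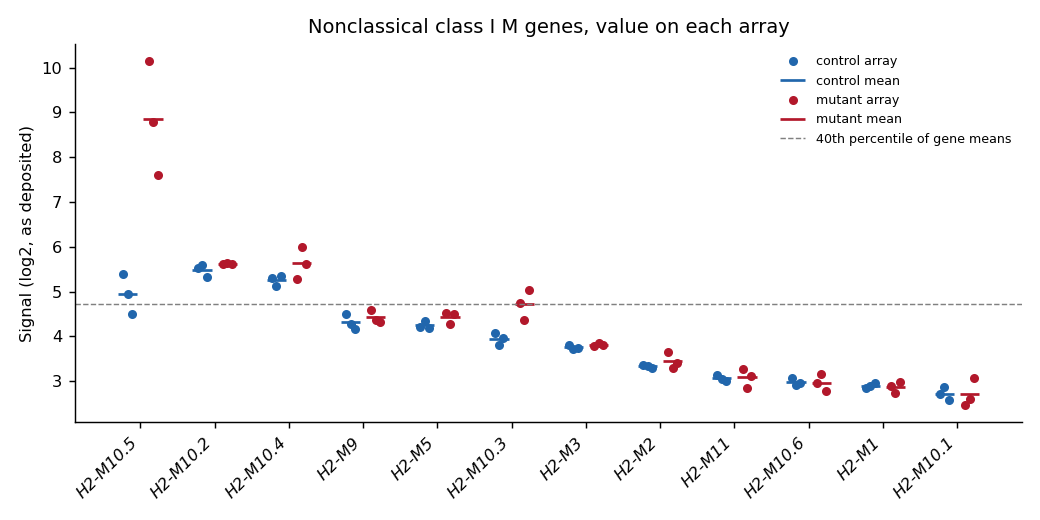
Deposited log2 signal (vertical axis) of the 12 nonclassical class I M genes on each of the 3 control (blue) and 3 mutant (red) arrays, ordered by mean. Short lines are group means and the dashed line is the dim limit of 4.72. The mutant values of *H2-M10.5*, 7.60 to 10.14, stand above every other value in the plot.

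Outside the M10 family, the M region gave small differences at low signal. *H2-M3*, which presents N-formylated peptides of bacteria and mitochondria, read 3.81, 3.72 and 3.73 on control and 3.78, 3.84 and 3.80 on mutant arrays (0.056 ± 0.087). *H2-M1*, *H2-M2*, *H2-M5*, *H2-M9* and *H2-M11* differed by -0.024 to 0.19, with mean levels between 2.89 and 4.37. All of these genes lay under the dim limit, where small differences are compressed. Of the 12 M genes, 9 had a difference above 0 and 3 below, 1 passed, and 9 lay under the dim limit. The median of the M genes other than *H2-M10.5* was 0.11.

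Classical class I could be read only from shared probe sets, since none named *H2-K1* or *H2-D1* alone and the class therefore had 0 members. The probe set listing *H2-D1* first read 9.85, 9.98 and 9.97 on control and 10.49, 10.07 and 10.20 on mutant arrays. The mutant values lay above the control values, by 0.32 ± 0.13 (SE; adjusted p = 0.373). The one listing *H2-K1* first read 8.58, 8.78 and 8.78 on control and 9.57, 8.73 and 9.02 on mutant arrays. There the groups overlapped, mutant 1 was the highest array, and the difference of 0.39 ± 0.21 did not pass (adjusted p = 0.529). Both sets also list *LOC547349*, so they read these class I genes together. That joint signal was bright in both genotypes, and neither set passed the test.

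The Q and T regions showed no change past the test. In the Q region, *H2-Q4* read 5.0, 5.29 and 5.11 on control and 5.81, 5.17 and 5.54 on mutant arrays. Mutant 2 lay among the controls, and the difference was 0.38 ± 0.17 (adjusted p = 0.436). *H2-Q5*, the brightest of the Q genes and annotated as a transcribed pseudogene, read 6.24, 6.56 and 6.29 on control and 6.27, 6.07 and 6.67 on mutant arrays. *H2-Q10*, whose product is known as a secreted class I molecule of the liver, was the dimmest, at 3.30, 3.09 and 3.15 on control and 3.43, 3.26 and 3.45 on mutant arrays. Neither was separated between groups, and *H2-Q2* differed by -0.048 ± 0.164. A probe set shared by *H2-Q6* and *H2-Q8*, genes of the Qa-2 group, differed by 0.15 ± 0.22.

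In the T region, *H2-T10* read 5.18, 5.21 and 5.26 on control and 5.41, 5.26 and 5.46 on mutant arrays. The groups did not overlap, but mutant 2 stood only just above control 3, and the difference was 0.16 ± 0.10 (adjusted p = 0.591). *H2-T24* read 4.16, 4.10 and 4.05 on control and 4.07, 4.32 and 4.32 on mutant arrays, with overlap. Brighter signal came from shared probe sets. The set naming *H2-T23*, which encodes Qa-1, the ligand of the NK cell receptor pair CD94 and NKG2A, together with *H2-T-ps*, differed by 0.058 ± 0.102. The set naming *H2-T22*, *H2-T9* and *H2-T10* read 8.82, 8.57 and 8.97 on control and 8.61, 8.42 and 8.46 on mutant arrays (-0.29 ± 0.13; adjusted p = 0.432). The products of *H2-T22* and *H2-T10* are known as ligands of gamma-delta T cells, though *H2-T10* is a transcribed pseudogene in the reference annotation. The sign of this set was opposite to that of the *H2-T10* set.

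*H2-K2* and *H2-Bl*, annotated as transcribed class I pseudogenes, were dim. *H2-K2* read 3.18, 3.15 and 3.21 on control and 3.51, 3.29 and 3.23 on mutant arrays, a difference of 0.16 ± 0.11. *H2-Bl* read 3.73, 3.90 and 3.85 on control and 3.93, 3.97 and 4.18 on mutant arrays, a difference of 0.20 ± 0.11. Their groups did not overlap, and neither passed (adjusted p = 0.619 and 0.538). Both readings lay below the dim limit on every array. A brighter probe set that names *H2-Bl* together with *H2-Q1* had overlapping groups and differed by 0.11 ± 0.12.

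The class II alpha and beta chain genes of H2-A and their escort *Cd74* were bright and varied between animals more than between genotypes. *H2-Aa* read 7.20, 7.90 and 7.22 on control and 8.54, 7.65 and 7.46 on mutant arrays. *H2-Ab1* read 8.39, 8.92 and 8.41 on control and 9.59, 8.46 and 8.65 on mutant arrays. *Cd74* read 7.95, 8.68 and 7.68 on control and 9.23, 7.98 and 7.81 on mutant arrays. In these 3 genes mutant 1 was highest and control 2 second, and the groups overlapped. The differences were 0.44 ± 0.31, 0.32 ± 0.30 and 0.24 ± 0.40 (SE; adjusted p = 0.651, 0.738 and 0.876). The spread within groups, 0.50, 0.48 and 0.66 (SD), lay at the percentiles 97.2, 96.9 and 98.4 of all genes, whose median was 0.15.

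**Figure D3:**
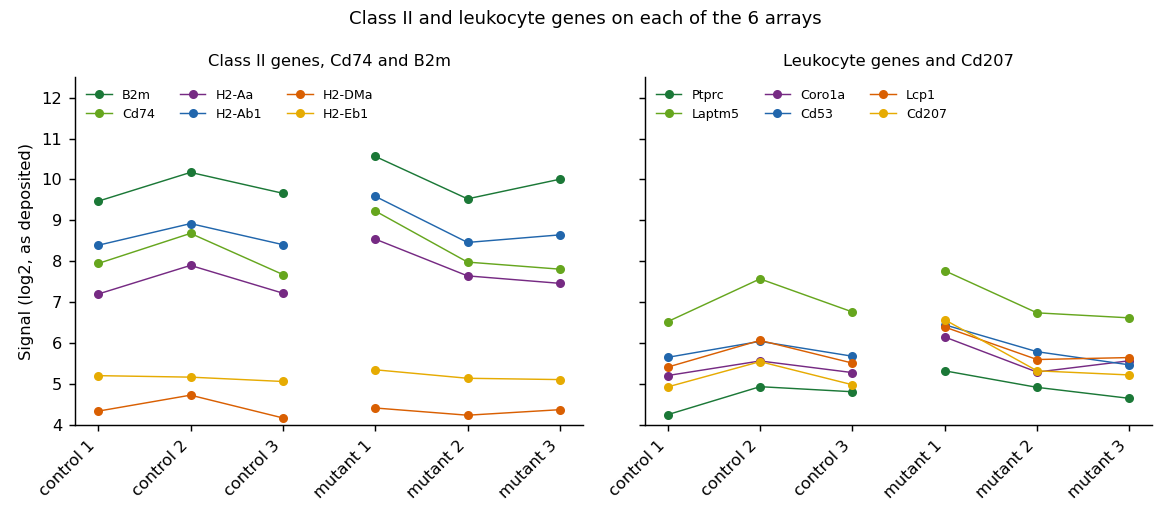
Deposited log2 signal (vertical axis) of 6 presentation genes (left) and of 6 leukocyte or Langerhans genes (right) on each array (horizontal axis). Lines join the arrays of a group only to guide the eye, since replicates have no order. Mutant 1 is the highest array in every line shown other than that of *H2-DMa*, where control 2 is highest.

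The pattern over arrays was shared by general leukocyte genes. Mutant 1 and control 2 were the top arrays in 5 of the 8 class II genes, beside 4.27% of all genes. Mutant 1 was the highest array in 16 of the 39 members, beside 16.7% of all genes. The 5 general leukocyte markers averaged 5.41 to 6.04 on control arrays and 5.59 to 6.42 on mutant arrays, highest on mutant 1 and next on control 2. Their 5 differences were above 0 (0.090 to 0.32) and 0 passed in limma, with 0 under an unadjusted p of 0.05. The smallest p-values belonged to *Coro1a* (0.32 ± 0.22) and *Ptprc*, encoding CD45 (0.30 ± 0.22). *Cd207*, encoding langerin of Langerhans cells, read 4.93, 5.55 and 4.99 on control and 6.57, 5.33 and 5.23 on mutant arrays, the same arrays being high. That gene was picked from 15 dendritic and Langerhans cell markers after its values were seen. Their list mean was highest on mutant 1 (4.68), next on mutant 3 (4.48) and then on control 2 (4.38). The macrophage and monocyte list mean was highest on control 3 (5.85). The part of leukocyte content in the class II readings was not tested. In RNA from a mix of cells, fewer cells of a type and less RNA per cell cannot be told apart.

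Lists of single leukocyte types stood as follows. Of 15 dendritic and Langerhans cell markers, 4 lay above the dim limit, 12 differed upward and 3 downward, and 0 passed in limma (2 at an unadjusted p under 0.05), with list means of 4.26 to 4.38 on control and 4.30 to 4.68 on mutant arrays. The smallest p-values there belonged to *Xcr1*, encoding a chemokine receptor of dendritic cells (0.28 ± 0.10; adjusted p = 0.275), and the costimulatory gene *Cd80* (0.41 ± 0.17; adjusted p = 0.375). Of 13 macrophage and monocyte markers, 9 lay above the dim limit, and 4 differed upward and 9 downward, with a median of -0.20. *Cd68*, encoding a lysosomal protein, rose by 1.11 ± 0.17 and *Lyz2*, encoding lysozyme, fell by 1.57 ± 0.27 (adjusted p = 0.0304 and 0.0463), while 11 did not pass, the complement genes *C1qa*, *C1qb* and *C1qc* among them at -0.40 ± 0.18, -0.49 ± 0.23 and -0.56 ± 0.27. The list means were 5.53 to 5.85 on control and 5.38 to 5.74 on mutant arrays. None of the 7 matched B cell markers, which include *Ms4a1*, *Cd79a* and *Pax5*, lay above the dim limit, and *Pax5* and *Cd79b* differed by 0.18 ± 0.14 and -0.17 ± 0.15. Of 11 T and NK cell markers, 2 lay above it, and *Cd4* and *Ncr1* differed by 0.18 ± 0.11 and -0.10 ± 0.12. In both lists 0 passed in limma, with 0 under an unadjusted p of 0.05.

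With mutant 1 set aside, several of these differences turned sign. Without that array *Cd74*, *H2-Ab1* and *H2-Eb1* differed by -0.21, -0.020 and -0.020, while *H2-Aa* stayed above 0 at 0.11. In the female arrays, where control 1 is left out too, *H2-Aa*, *H2-Ab1* and *Cd74* differed by -0.008, -0.11 and -0.29. The male pair, 1 array each, differed by 1.34, 1.20 and 1.28 in *H2-Aa*, *H2-Ab1* and *Cd74*. The difference of the genotype effect between the sexes passed in 0 of 39 members by the limma interaction term, beside 0.0451% of all genes. At an unadjusted p under 0.05 there were 4 members, beside 1160 of all 19938 genes. The smallest adjusted p of that term among the members was 0.602. With 1 male array per genotype, its residual spread came from the females alone, so the absence of a call says little.

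A stretch upstream of *H2-Aa* is shown for comparison with the class I relatives above, again with TGACG and CCAAT on either strand in capitals.
H2-Aa (GRCm38.p6, chr17:34287774-34288073, - strand): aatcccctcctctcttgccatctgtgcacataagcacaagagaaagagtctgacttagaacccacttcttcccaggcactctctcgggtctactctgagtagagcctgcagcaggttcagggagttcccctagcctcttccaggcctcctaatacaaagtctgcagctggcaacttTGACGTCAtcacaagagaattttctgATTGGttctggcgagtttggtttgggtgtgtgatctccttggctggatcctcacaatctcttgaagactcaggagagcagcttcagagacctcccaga
Of the 39 members, 28 had an entry in the RefSeq promoter table. TGACG was found in 11 of these, CCAAT in 23 and CACCC in 20. *H2-Aa* held TGACG and CCAAT, as did *H2-M10.1*, *H2-M10.3*, *H2-M10.4* and *H2-M10.5*. The differences of these family members lay between -0.0026 (*H2-M10.1*) and 3.90 (*H2-M10.5*), and the part of these motifs in the readings was not tested.

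The other class II genes were dimmer and differed little. *H2-Eb1*, the H2-E beta chain gene, read 5.21, 5.17 and 5.07 on control and 5.35, 5.14 and 5.11 on mutant arrays. *H2-Ea*, which is not expressed in some haplotypes and is a transcribed pseudogene in the reference annotation, was the dimmest class II gene, at 3.48, 3.54 and 3.29 on control and 3.54, 3.28 and 3.36 on mutant arrays. *H2-Eb2* read 4.19, 4.52 and 4.08 on control and 4.31, 4.12 and 4.26 on mutant arrays. Their groups overlapped throughout. *H2-DMa*, a chain of the molecule that edits class II peptides, differed by -0.071 ± 0.151, and the probe set shared by its partners *H2-DMb1* and *H2-DMb2* by 0.14 ± 0.27. *H2-Oa* and *H2-Ob*, encoding the inhibitor of H2-DM in B cells, differed by 0.15 ± 0.14 and -0.0048 ± 0.1205. In all, 4 of 8 class II genes had a difference above 0 and 4 below, 0 passed in limma and 0 had an unadjusted p under 0.05, and the median was 0.025.

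The transactivator genes did not differ past the test. *Ciita* read 4.27, 4.75 and 4.39 on control and 4.50, 4.28 and 4.66 on mutant arrays, close to the dim limit, and its difference was 0.011 ± 0.156. *Nlrc5* read 8.65, 9.15 and 8.58 on control and 8.57, 8.52 and 9.06 on mutant arrays (-0.076 ± 0.198). The groups of both genes overlapped. *Nlrc5* had 19 probe sets, of which 8 differed upward and 11 downward, between -0.21 and 0.29, and 0 passed. The set read here was the brightest (mean 8.76), and the others had means of 3.31 to 6.68, so the level of this gene is uncertain.

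Loading and processing genes moved little, with tapasin on the other side of 0 from the rest. *B2m*, the brightest member, read 9.47, 10.17 and 9.66 on control and 10.56, 9.53 and 10.01 on mutant arrays. It was highest on mutant 1 and control 2, as *H2-Aa*, *H2-Ab1* and *Cd74* were. It differed by 0.26 ± 0.28 (adjusted p = 0.780), or by -0.0025 without mutant 1. *Tapbp* read 9.26, 9.11 and 9.10 on control and 8.95, 8.79 and 8.97 on mutant arrays. Every mutant value lay below every control value, and the difference of -0.25 ± 0.10 did not pass (adjusted p = 0.365). Its direction was kept in all 15 alternatives, between -0.29 and -0.19.

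The peptide transporter genes were close between groups. *Tap1* read 6.59, 6.49 and 6.52 on control and 6.70, 6.57 and 6.63 on mutant arrays, with overlap of control 1 and mutant 2 and a difference of 0.099 ± 0.091. *Tap2* differed by 0.20 ± 0.15. Among the immunoproteasome genes, *Psmb8* read 4.92, 4.98 and 4.73 on control and 5.04, 4.66 and 5.20 on mutant arrays, with the groups mixed. *Psmb9* and *Psmb10* differed by 0.098 ± 0.115 and 0.074 ± 0.098. The 7 genes had a median difference of 0.098, with 6 above 0 and 1 below. *H2-Ke6*, which lies in the region but encodes a hydroxysteroid dehydrogenase and no MHC molecule, read 6.83, 6.64 and 6.85 on control and 6.75, 6.58 and 6.48 on mutant arrays (-0.17 ± 0.11).

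Along chromosome 17, *H2-M10.5* stood among genes that did not pass. In the gene order of GRCm38.p6, 157 measured genes lay from *H2-K2* to *H2-M2*. Of these, *H2-M10.5* rose and *Ly6g6c*, a Ly6 family gene that is no member, fell (-0.70 ± 0.12; adjusted p = 0.0469), while 155 did not pass. These 2 genes are 1.27% of the region, beside 1.04% of all genes. The measured neighbours of *H2-M10.5*, *H2-M1* and *H2-M10.6*, differed by -0.024 and -0.021. The median difference over the 157 genes was 0.041, and the groups did not overlap in 27 of them (17.2%), beside 18.1% of all genes.

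**Figure D4:**
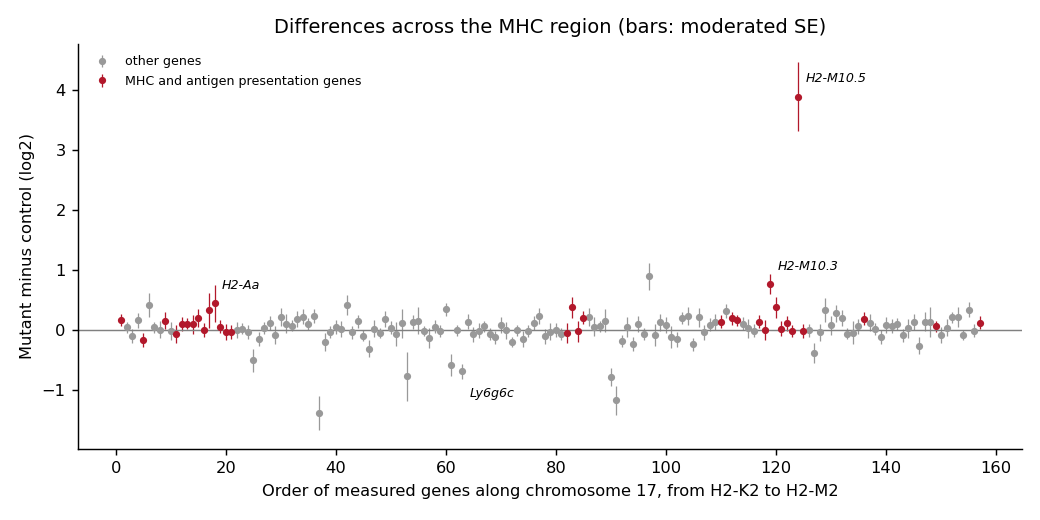
Difference between mutant and control means (log2, vertical axis, bars moderated SE) of the 157 measured genes in their order along chromosome 17 (horizontal axis, rank and not distance). Members are red and other genes grey. *H2-M10.5* lies at 3.90 and its neighbours near 0.

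Other genes of the pathway gave no call. Of 25 matched genes of antigen processing outside the 39, 18 differed upward and 7 downward, 0 passed in limma and 3 had an unadjusted p under 0.05, with a median of 0.068. The smallest p belonged to *Ifi30*, encoding the thiol reductase that unfolds antigens in endosomes, at -0.69 ± 0.13 (adjusted p = 0.0619). The next was the constitutive proteasome subunit gene *Psmb5*, at 0.31 ± 0.11 (adjusted p = 0.294). Of 22 matched interferon response genes, 9 differed upward and 13 downward, 0 passed in limma and 3 had an unadjusted p under 0.05, with a median of -0.033. The smallest p-values belonged to *Ifngr2*, a chain of the interferon gamma receptor (-0.53 ± 0.10; adjusted p = 0.0757), and *Irf9*, a subunit of the factor that interferon activates (-0.61 ± 0.14; adjusted p = 0.116). In both genes, picked by their small p-values, every mutant value lay below every control value. Of the 22 genes, 4 were separate downward and 1 upward, beside 8% and 10.1% of all genes.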

How the data were processed

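The authors' deposited log2 table covers 28853 probe sets and 6 arrays. Partek 6.4 is named per the submitters' processing notes; how the authors corrected background, normalized and summarized is not given in the sources used here. That the scale is log2 was judged by its range (array medians 5.01 to 5.13, maxima 13.99 to 14.67). Arrays have no read depth, and their number limits precision.

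Gene names came from GEO's platform annotation. Symbols were brought to GRCm38.p6 by Entrez identifier (21698 of 21789 single-gene probe sets matched, 91 kept their symbol). Probe sets naming several genes numbered 1621, and 5443 were unnamed here. Each gene was read from its brightest probe set by mean over 6 arrays (19938 genes, of which 999 had several), and no values were filtered or renormalized. The fit was limma 3.58.1 in R 4.3.3 (lmFit, eBayes, two-sided, genotype only, 4 residual and 7.58 moderated degrees of freedom), and p-values were adjusted by Benjamini-Hochberg across the 19938 genes (threshold 0.05). Each array is 1 animal by the labels. Shared probe sets came from a fit of every named probe set. An exact permutation p for 3 against 3 cannot go below 0.1 and was not used. The steps were tested on simulated data. Python 3.11.15, matplotlib 3.10.9 and Biopython 1.88 (global alignment, free end gaps) were also used.

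The members and the 11 gene lists were chosen with earlier results of these data known. Named with all 6 values were passing members, members with separate groups and a difference of at least 0.5, shared classical class I probe sets, the brightest and dimmest of each class, class II chain genes, *B2m*, *Tap1*, *Psmb8*, *Cd74*, *Ciita* and *Nlrc5*. *H2-M10.2*, *H2-M10.4*, *H2-M3*, *H2-Q4*, the shared *H2-T22* set and *Tapbp* were added after their values were seen. From each pathway or marker list, passing genes or the smallest p-values were named. *Cd207* and the C1q genes were singled out after their values were seen. Alternatives covered normalization, centring, dim genes, probe set rule, replicate block, sex, trend, array weights, females alone and each array left out.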

Additional observations from a re-analysis of the deposited data

Results flagged for a closer look

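Sex was 1 male and 2 females per group. In 3 members the male pair differed downward and both female mutants lay above both female controls. The share of all genes with this pattern was not counted, so the 3 cannot be read against a background. In the females alone, 41.8% of all genes had separate groups in either direction. The male difference minus the female difference was -0.58 for *H2-M10.4* (-0.016 in the male pair and 0.57 in the females), -0.12 for *H2-M3* (-0.027 and 0.098) and -0.34 for *H2-T24* (-0.091 and 0.25). The limma interaction term did not pass for any of the 3 (adjusted p = 0.954, 0.9998 and 0.993).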

How the results depend on the processing

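*H2-M10.5* kept its direction in all 15 alternatives, between 3.25 and 4.52, and passed in 12, so the count of members passing was 0 or 1 with single arrays left out. Each of the other 38 members passed in 0 alternatives. Of the 39 members, 21 kept their direction in every alternative tried. The same count was not made over all genes. The replicate block, sex and trend settings leave the difference itself unchanged, so no direction could turn in them. The genes passing over all genes, 207, numbered 370 with array weights, 83 in the females alone and 44 to 193 with single arrays left out. The members with separate groups, 7, numbered 4 without dim genes (fewer genes tested), 15 in the females alone (fewer arrays) and 7 to 15 with single arrays left out. The share of all genes separated rose as well, from 18.1% to 22.9% without dim genes, 41.8% in the females alone and 23.9% to 30.4% with single arrays left out, beside 20.0%, 38.5% and 17.9% to 38.5% of the members. Without dim genes the median was 0.37 for the 3 M genes left and 0.32 for the 3 class II genes left. The median of the loading and processing genes was 0.040 to 0.19 with single arrays left out.

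Correlations of deviations across genes were -0.17, 0.090 and -0.10 for same-numbered arrays. Control and mutant arrays of unlike number gave -0.27 to 0.31. With 3 arrays per group, these values cannot show whether the numbers pair the animals. With the replicate number as a block, 81 genes passed and *H2-M10.5* passed (3.90, adjusted p = 0.0157).

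Of the 39 members, 18 turned sign in some setting. They passed in none, and the cause was not tested. Of these, 6 are given by their range alone (*H2-DMa*, *H2-M1*, *H2-M10.6*, *H2-M11*, *H2-Ob* and *H2-Q2*, between -0.19 and 0.13 over all alternatives), and the values of the rest follow. In the females alone they were -0.15 for *B2m*, -0.29 for *Cd74*, -0.098 for *Ciita*, -0.0080 for *H2-Aa*, -0.11 for *H2-Ab1* and 0.11 for *H2-M10.1*. With array weights they were 0.019 for *H2-Ea*, 0.041 for *H2-Eb2* and 0.013 for *H2-M10.1*, with median centring 0.020 for *H2-M10.1* and with quantile normalization 0.019 for *H2-Q5*. With single arrays left out, the ranges were -0.0025 to 0.52 for *B2m*, -0.21 to 0.53 for *Cd74*, -0.089 to 0.15 for *Ciita*, -0.020 to 0.54 for *H2-Ab1*, -0.12 to 0.016 for *H2-Ea*, -0.020 to 0.099 for *H2-Eb1*, -0.13 to 0.090 for *H2-Eb2*, -0.18 to 0.12 for *H2-M10.1*, -0.19 to 0.11 for *H2-Q5*, -0.25 to 0.0996 for *Nlrc5* and -0.025 to 0.25 for *Psmb8*. Of the 39 members, 19 lay at or under the dim limit, where signal close to background limits what a difference can show. Over all genes the median difference was 0.022 without rescaling, 0.013 with quantile normalization and 0.044 with median centring.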
